A study of Mus musculus with 32 samples.

Results

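The 10 probes described here were detected in IL-4-activated macrophages and not in immature dendritic cells (iDCs) grown from the same bone marrow. They were selected on their signal-to-noise ratio (S/N) among 33012 noncontrol probes, a value that is part of the deposited readout and that had to be at least 3 on all 16 macrophage arrays and below 3 on all 16 iDC arrays. Both cell types were grown from 8 C57Bl/6 mice, with 4 mice of the Pparg+/- LysCre and 4 of the Pparg fl/- LysCre genotype. The macrophages received 20 ng/ml M-CSF and 20 ng/ml IL-4, and the iDCs 20 ng/ml GM-CSF and 20 ng/ml IL-4, for 9 days. Each culture was given vehicle (DMSO and ethanol) or 1 μM Rosiglitazone (RSG), which makes 8 groups of 4 mice and 32 arrays. All mice carried a null allele of Pparg and the LysCre transgene, so the Pparg+/- LysCre controls had a single functional copy, and no group was untreated with IL-4. The Pparg fl/- LysCre mice carried a loxP-flanked allele in its place, which Cre removes in cells that express lysozyme, so deletion follows lysozyme expression. Ages and sexes are not given in the sources used here.

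PPARγ is a nuclear receptor that binds lipids and, together with RXR, switches on genes of lipid uptake and storage. RSG is a synthetic agonist of it. IL-4 acts through STAT6 and turns macrophages to the alternatively activated state, in which PPARγ is abundant. M-CSF directs bone marrow progenitors to macrophages, whereas GM-CSF together with IL-4 gives iDCs, cells specialised in presenting antigen to T cells. An agonist effect that needs the receptor should be absent where Pparg is deleted, so RSG and genotype are the comparisons within macrophages that the choice of probes did not use.

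None of the 10 probes carried a gene symbol. Of these, 9 are known by mCG identifiers, which name mouse gene models of the Celera genome, and 1 (AK041313.1) by the GenBank accession of a RIKEN full-length mouse cDNA. Of all probes, 84.6% had an mCG identifier, 12.7% an AK identifier and 0.957% a gene symbol. The functions of the 10 transcripts are therefore not described, and their probe sequences and positions are not given in the sources used here. The lists of macrophage, dendritic cell, neutrophil, mast cell, eosinophil, lymphoid, stromal, PPARγ target and IL-4 genes matched no named probe, and the erythroid list matched 1 of 7. The labelled cell types and the level of Pparg itself could thus not be checked on these arrays.

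Probes of this kind were rare. In all, 10822 probes were detected on the 16 macrophage arrays, 10860 on the 16 iDC arrays and 9960 on all 32, and the mirrored rule (all iDC arrays and no macrophage array) gave 17 probes. Between 13830 and 16009 probes were detected on a macrophage array and between 13595 and 16683 on an iDC array. In every mouse the macrophage array with RSG detected fewer probes than that with vehicle. Since the S/N chose the 10 probes, the separation of the cell types is a description and was not tested.

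mCG16889.2 had the widest separation. Its S/N ran from 14.7 to 56.7 in macrophages and from -4.50 to 0.59 in iDCs, where it was above 1 on none of 16 arrays. Here an S/N at or below 1 means that the signal listed is the probe's own standard deviation, a level of noise. mCG119745 was above an S/N of 1 on 1 iDC array (highest 1.09) and ran from 3.58 to 28.8 in macrophages. mCG56186.2 was above 1 on 2 iDC arrays (highest 2.46), with 6.73 to 63.9 in macrophages. mCG19202.1 had a lowest macrophage S/N of 9.33 and was above 1 on 3 iDC arrays, with a highest value of 2.69. These probes were the ones with the fewest iDC arrays above the level of noise.

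Among the remaining probes, mCG13858.1 ran from 4.82 to 43.6 in macrophages and reached 2.14 in iDCs. The macrophage S/N ran from 4.34 to 28.3 for mCG146175 and from 4.24 to 15.3 for mCG134291.1, with highest iDC values of 2.31 and 2.6. On the macrophage side the probes nearest to the threshold were AK041313.1, with a lowest macrophage S/N of 3.27 and a highest iDC S/N of 2.77, mCG20406.2 with 3.56 and 2.73, and mCG5982.1 with 3.47 and 2.45. Just outside on the macrophage side lay mCG129940.1, mCG1954.2 and mCG20940.1, with lowest S/N of 2.95, 2.66 and 2.09. Just outside on the iDC side lay mCG17254.1, AK038409.1 and mCG1040561.1, with highest S/N of 3.02, 3.05 and 3.08. In iDCs 4 of the 10 probes, AK041313.1 among them, thus reached an S/N of 2.6 or more on at least 1 array.

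A fold difference between the cell types can be given only as a bound on the listed signals. No iDC value reached the detection limit. Many were at or below an S/N of 1, where the listed signal is the probe's standard deviation. For each iDC array the higher of the probe's listed signal and the lowest signal of any detected probe was taken, and their mean log2 value was set against that of the 16 macrophage arrays. By this bound mCG16889.2 was 158-fold higher in macrophages. The bound ran from 69.1-fold in Pparg fl/- LysCre cells with RSG to 324-fold in Pparg+/- LysCre cells with vehicle. Detection needed an S/N of 3, so set against a probe's own detection limit the folds could be smaller. Over all 16 arrays the bound was 23.2-fold for mCG56186.2, 19.1-fold for mCG13858.1 and 15.9-fold for mCG19202.1. mCG5982.1 (9.10-fold), mCG134291.1 (8.15-fold), mCG146175 (7.94-fold), mCG119745 (7.64-fold), mCG20406.2 (6.08-fold) and AK041313.1 (4.50-fold) had smaller bounds. For mCG13858.1, mCG5982.1, mCG134291.1 and AK041313.1 the bound matched the plain ratio of the mean listed signals. For mCG5982.1 the bound was 2.88-fold in Pparg+/- LysCre cells with RSG and 17.6-fold in Pparg fl/- LysCre cells with vehicle, and for AK041313.1 the smallest was 2.67-fold. Bounds of different probes are not an order of expression, since probes differ in brightness.

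For 2 of the gene models the array held a second probe, which the choice did not use. The second probe of mCG56186.2 was detected on 16 of 16 macrophage arrays, with an S/N of 4.01 to 48.6, and on 1 of 16 iDC arrays, with a median S/N of 0.52 and a highest of 3.84. Both probes of this gene model thus separated the cell types, although the second missed the rule on 1 array. The second probe of mCG134291.1 was detected on none of the 16 macrophage arrays (S/N -0.51 to 2.35) and on none of the 16 iDC arrays (-0.15 to 2.29). For mCG134291.1 the detection in macrophages therefore rests on 1 of its 2 probes.

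Within macrophages, signals were quantile normalized over the arrays, and values below are normalized signals in arbitrary units, 1 per mouse. Differences are on the log2 scale with their standard error (SE), from limma fitted to the 16620 probes detected in at least 1 group. A difference was called where it reached 1.5-fold and its adjusted p was under 0.05. The 10 probes were detected in every macrophage sample, so a transcript that RSG or the deletion removed from macrophages could not be among them. In such cultures fewer cells of a type and less RNA per cell cannot be told apart.

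RSG lowered 3 of the 10 probes in Pparg+/- LysCre macrophages, mCG13858.1, mCG5982.1 and mCG20406.2, and raised none. RSG was called for 199 of the 16620 probes tested, a background of 1.2%, of which 95 were higher and 104 lower. With the mouse as a block 494 of all probes were called, and 3 of the 10, with AK041313.1 in place of mCG20406.2. Without 1 mouse the count over all probes ran from 50 (without mouse 1) to 395 (without mouse 5), with 61, 67, 55 and 129 without mouse 2, 3, 4 or 6. Among the 10822 probes detected on all 16 macrophage arrays, the background was 1.42%. The 10 probes had a median log2 difference of -0.62, and 9 of 10 were below 0, against a median of -0.03 over all probes tested. The RSG arrays of mice 1 to 4 also detected fewer probes, 13959, 15250, 13933 and 13830, against 15144, 15918, 15590 and 15433 with vehicle. Whether this bears on the fall of the 10 probes was not tested.

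mCG13858.1 had normalized signals of 4361, 4185, 4079 and 4951 in vehicle-treated Pparg+/- LysCre macrophages (mice 1 to 4). With RSG the signals of the same mice were 1319.7, 1369, 1454 and 1449.6. The groups did not overlap, and the highest RSG value was far below the lowest vehicle value. The log2 means were 12.10 ± 0.12 with vehicle and 10.45 ± 0.07 with RSG (SD, n = 4), a difference of -1.65 (SE 0.17, adjusted p = 0.000459 by limma), or 3.14-fold lower. Within mice the difference ran from -1.49 to -1.77, and it was -1.67 and -1.63 in the pairs of mice scanned on each of 2 days.

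mCG5982.1 was at 2366, 2563, 2007 and 2162 with vehicle and at 807, 651, 1064 and 986 with RSG in Pparg+/- LysCre mice 1 to 4. Each RSG value lay below each vehicle value. The log2 difference was -1.39 (SE 0.29, adjusted p = 0.0333 by limma), 2.63-fold lower, and it was -1.76 and -1.02 by scan day. The size held when any mouse was left out (-1.20 to -1.55), but the call was lost without mouse 1, 2, 3, 4, 7 or 8 (adjusted p 0.0564 to 0.236), where each removal also leaves fewer mice in the fit.

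mCG20406.2 was at 1079, 1379, 735 and 1026 with vehicle and at 424, 415, 327 and 673 with RSG in Pparg+/- LysCre mice 1 to 4. The highest RSG value, of mouse 4, was just below the lowest vehicle value, of mouse 3. The log2 difference was -1.21 (SE 0.27, adjusted p = 0.0398 by limma), 2.32-fold lower, with -1.54 and -0.89 by scan day. The call was lost without mouse 1, 2, 3, 4, 6, 7 or 8 (adjusted p 0.0557 to 0.263, difference -1.04 to -1.42 over all removals). It was also not called with the scan day as a block (adjusted p = 0.0531), and was called in 10 of 24 alternatives. With the mouse as a block, which pairs the cultures of each animal, its adjusted p was 0.0513 and it was not called, whereas AK041313.1 was (-0.64, SE 0.11, adjusted p = 0.0228).

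Of the probes that were not called, mCG146175 was at 567, 1168, 928 and 1055 with vehicle and at 482, 495, 507 and 539.9 with RSG (-0.83, SE 0.26, adjusted p = 0.171). AK041313.1 was at 3013, 2939, 3597 and 2814 with vehicle and at 1928, 2121, 2389 and 1551 with RSG (-0.64, SE 0.22, adjusted p = 0.222). mCG119745 was at 1658, 1796, 1829.6 and 1731 with vehicle and at 1267, 1010.0, 1582 and 895 with RSG (-0.60, SE 0.29, adjusted p = 0.463). In each of these the values with RSG lay below those with vehicle without overlap and all 4 mice moved the same way, yet the adjusted p missed the threshold. How many of the 16620 probes tested separated in this way was not counted, so these probes cannot be set against a background. The median difference over all probes tested was also below 0, at -0.03.

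mCG56186.2 (-0.55, 95% interval -1.38 to 0.28), mCG16889.2 (-0.45, -1.37 to 0.47) and mCG134291.1 (-0.28, -0.78 to 0.22) had overlapping groups, although mCG56186.2 was lower in 4 of 4 mice (by 0.18 to 1.33). mCG19202.1 was the 1 probe above 0, at 1994, 1569, 2216 and 2169 with vehicle and 1908, 2168, 2856 and 3296 with RSG (0.34, -0.16 to 0.84), higher in mice 2, 3 and 4. Its interval includes no change as well as a rise of more than 1.5-fold.

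No probe of the 10 was called for RSG in Pparg fl/- LysCre macrophages, and neither was any of the 16620 tested (0%) by limma, where 497 passed 0.05 before adjustment and none of them was among the 10. With the mouse as a block 5 probes were called, none of the 10, and 1198 passed 0.05 before adjustment, 4 of the 10 among them. By the methods' t-test 0 probes were called after adjustment, and of the 207 called without adjustment none was among the 10. The median log2 difference of the 10 probes was -0.35, with 9 of 10 below 0, against -0.01 over all probes tested. Here too the RSG arrays detected fewer probes, 15126, 15227, 14743 and 14197 in mice 5 to 8, against 15293, 15650, 16009 and 15879 with vehicle. With each array scaled to its median in place of quantile normalization, medians moved in both genotypes. The median over all probes was then -0.18 in Pparg+/- LysCre and -0.13 in Pparg fl/- LysCre macrophages. Those of the 10 probes were -0.83 and -0.49, again with 9 of 10 below 0 in each genotype. How many of all probes tested were below 0 was not counted. Whether this shift bears on the fall of the 10 probes was not tested.

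mCG13858.1 was at 3573, 5192, 4509 and 5640.3 with vehicle and at 2598, 3911, 4578 and 4408 with RSG in Pparg fl/- LysCre mice 5 to 8. Mouse 7 was slightly higher with RSG and the others lower. The difference was -0.30 (95% interval -0.67 to 0.07, adjusted p = 1.00 by limma). mCG5982.1 was at 1856, 5073, 3531 and 3953 with vehicle and 1784, 4045, 3154 and 2498 with RSG, lower in 4 of 4 mice by 0.06 to 0.66 (-0.30, -0.93 to 0.33). mCG20406.2 was at 654, 1302, 1010.3 and 911 with vehicle and 1117, 763, 629.8 and 845 with RSG, and here mouse 5 rose by 0.77 while the other 3 were lower (-0.20, -0.77 to 0.37). Without mouse 5 the difference of mCG20406.2 was -0.52 and was not called.

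The other 7 probes had differences from -0.75 to 0.12 in Pparg fl/- LysCre macrophages, and none was called. mCG56186.2 was at 5050.2, 2799.5, 2671 and 2218 with vehicle and at 4375, 1209, 1837 and 1079.7 with RSG in mice 5 to 8, a difference of -0.75 (95% interval -1.58 to 0.09). mCG119745 was at 1826, 870, 1019 and 716 with vehicle and at 1123, 716, 649 and 482 with RSG, a difference of -0.55 (-1.17 to 0.07). AK041313.1 was at 1721, 1387, 1171 and 1079 with RSG, against 2867, 1487, 1487 and 1470.5 with vehicle (-0.41, -0.88 to 0.06). In these 3 probes, as in mCG16889.2 (-0.50, -1.42 to 0.42), the RSG culture was lower in 4 of 4 mice, and the groups overlapped. mCG146175 was at 1698, 1569, 1002 and 995 with vehicle and 1407, 806, 1028 and 705 with RSG, lower in 3 of 4 mice (-0.42). mCG134291.1 (-0.10) and mCG19202.1 (0.12) also had mice on both sides of 0. For each of these 7 probes the 95% interval includes the difference measured in Pparg+/- LysCre macrophages.

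The difference in RSG effect between genotypes asks directly whether the response depended on Pparg. None of the 10 probes was called by limma, against 1 of all probes tested (0.00602%). Before adjustment 3 of the 10 and 574 of all passed 0.05. By the methods' t-test none of the 10 was called after adjustment and 2 were without it, against 519 of all probes tested. The 3 probes were those lowered in Pparg+/- LysCre macrophages, and the same Pparg+/- LysCre arrays enter both comparisons, so this is not separate evidence. mCG13858.1 had a difference of 1.35 (SE 0.25, 95% interval 0.82 to 1.88, adjusted p = 0.279), mCG5982.1 of 1.09 (SE 0.41, 0.20 to 1.98, adjusted p = 1.00) and mCG20406.2 of 1.02 (SE 0.38, 0.21 to 1.82, adjusted p = 1.00), each in the direction of a smaller fall in Pparg fl/- LysCre cells. With the mouse as a block, 23 of all probes were called and mCG13858.1 was among them (adjusted p = 0.01), as it was without mouse 5 (1.40, SE 0.15, adjusted p = 0.00846). For the other 7 probes the difference ran from -0.22 for mCG19202.1 to 0.40 for mCG146175, and each interval included 0.

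With RSG, 5 of the 10 probes differed between the macrophages of the 2 genotypes, which were scanned on different days: mCG5982.1, mCG13858.1, mCG146175 and mCG20406.2 were higher in Pparg fl/- LysCre cells and mCG16889.2 lower. This comparison and that of RSG in Pparg+/- LysCre macrophages share the 4 Pparg+/- LysCre arrays with RSG, so they are not separate evidence for the same probe. The background was 9.33% (1550 of the probes tested, 849 higher and 701 lower) and 10.3% among those detected on all 16 macrophage arrays. Without any 1 of the mice other than mouse 5, the count over all probes was 504 (without mouse 7) to 925 (without mouse 4). The median difference of the 10 probes was -0.18, with 5 above and 5 below 0.

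With RSG, mCG5982.1 was at 651 to 1064 in Pparg+/- LysCre and at 1784 to 4045 in Pparg fl/- LysCre macrophages, with the lowest of the latter in mouse 5. The groups stayed apart, by 1.67 on the log2 scale (SE 0.29, adjusted p = 0.00452 by limma), or 3.19-fold. mCG13858.1 was at 1319.7 to 1454 against 2598 to 4578, again with mouse 5 lowest, a difference of 1.44 (SE 0.17, adjusted p = 0.000919), or 2.71-fold. These 2 calls held when any mouse was left out. By the methods' t-test after adjustment, which called 187 of all probes tested, mCG13858.1 was called and mCG5982.1 was not (adjusted p = 0.0562).

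mCG146175 was at 482 to 539.9 in Pparg+/- LysCre and at 705 to 1407 in Pparg fl/- LysCre macrophages with RSG, a difference of 0.91 (SE 0.26, adjusted p = 0.0349 by limma). Without mouse 1, 2, 3, 4, 6 or 7 its adjusted p was 0.062 to 0.1. mCG20406.2 was at 327 to 673 against 629.8 to 1117, with an overlap between mouse 4 and mouse 7, and a difference of 0.89 (SE 0.27, adjusted p = 0.0428). Its call was lost without mouse 1, 2, 3, 6, 7 or 8 (adjusted p 0.0752 to 0.116) and with the mouse as a block (0.0625). Median scaling, the authors' ratios and the assay-normalized signal each ended both calls, and mCG146175 was called in 9 and mCG20406.2 in 8 of 24 alternatives. Over these alternatives the log2 difference ran from 0.73 to 1.06 for mCG146175 and from 0.74 to 1.09 for mCG20406.2.

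mCG16889.2 had normalized signals of 64485, 50742, 44585 and 60563 in Pparg+/- LysCre mice 1 to 4 with RSG and of 34597, 21809, 7141 and 29359 in Pparg fl/- LysCre mice 5 to 8. The Pparg fl/- LysCre values all lay lower, and mouse 7 stood far below the others. The difference was -1.45 (SE 0.43, adjusted p = 0.0407 by limma), 2.73-fold lower. It was not called without mouse 1, 2, 3, 4, 6, 7 or 8 (-0.96 without mouse 7, adjusted p 0.0698 to 0.106 over these). The mice of a genotype were scanned together, 2 to a day, and with the day as a random block mCG16889.2 (adjusted p = 0.0675), mCG146175 (0.0552) and mCG20406.2 (0.0785) were not called, whereas mCG13858.1 (0.00194) and mCG5982.1 (0.0119) were. The log2 differences of the 3 probes not called were the same with this block, at -1.45, 0.91 and 0.89. No day held both genotypes, so no comparison of genotypes within a day was possible.

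With vehicle, none of the 10 probes was called for genotype by limma, against 26 of those tested (0.156%), while 4 of the 10 and 3891 of all passed 0.05 before adjustment. Fitting the mouse as a block gave 341 calls over all probes and 1 among the 10, and leaving out any 1 mouse other than mouse 5 gave 0 to 4 over all probes. By the methods' t-test none of the 10 passed after adjustment and 4 did without it, against 1528 of all probes tested. In both tests the 4 probes were mCG16889.2, AK041313.1, mCG119745 and mCG56186.2, all with a lower mean in Pparg fl/- LysCre macrophages. The median difference of the 10 probes was -0.21, with 7 below 0.

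mCG16889.2 was at 113172, 46565, 85585 and 67785 in Pparg+/- LysCre and at 38789, 30077, 17145 and 31565 in Pparg fl/- LysCre macrophages with vehicle, with no overlap (-1.40, SE 0.43, adjusted p = 0.0968 by limma). The size was close to that with RSG. AK041313.1 was at 2814 to 3597 in Pparg+/- LysCre and at 2867, 1487, 1487 and 1470.5 in Pparg fl/- LysCre (-0.82, SE 0.22, adjusted p = 0.0774). With the mouse as a block AK041313.1 was called (adjusted p = 0.0490). mCG119745 was at 1658 to 1829.6 against 1826, 870, 1019 and 716 (-0.76, SE 0.29, adjusted p = 0.148), and mCG56186.2 at 4409.5 to 9684 against 5050.2, 2799.5, 2671 and 2218 (-0.97, SE 0.39, adjusted p = 0.161). In these 3 probes mouse 5 lay within the range of the Pparg+/- LysCre mice and mice 6 to 8 below it.

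The second probe of mCG56186.2 gave a genotype difference of -0.82 with vehicle (SE 0.39, adjusted p = 0.218 by limma) and of -0.99 with RSG (SE 0.39, adjusted p = 0.0993). The first probe of mCG56186.2, which is among the 10, had -0.97 and -1.17 (SE 0.39, adjusted p = 0.0608 with RSG, and 0.0471 with the mouse as a block). For RSG the second probe had -0.22 in Pparg+/- LysCre and -0.38 in Pparg fl/- LysCre macrophages, against -0.55 and -0.75. No difference of either probe was called in the fit without a block.

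The mouse labelled Pparg fl/- LysCre 5 decided several genotype results. Leaving it out raised the probes called for genotype with vehicle from 26 to 2488 of all tested and from 0 to 5 of the 10, and with RSG from 1550 to 3385 of all and from 5 to 9 of the 10. Without it, the differences with vehicle were -1.05 for AK041313.1 (SE 0.15, adjusted p = 0.000355), -1.03 for mCG119745 (SE 0.20, adjusted p = 0.00293) and -1.21 for mCG56186.2 (SE 0.25, adjusted p = 0.00416). mCG16889.2 (-1.55, adjusted p = 0.0233) and mCG5982.1 (0.87, adjusted p = 0.00878) were called as well. With RSG, AK041313.1 (-0.71), mCG119745 (-0.93), mCG56186.2 (-1.59) and mCG19202.1 (-0.69) joined the 5 probes called with all mice. Each of these 4 was lower in Pparg fl/- LysCre macrophages.

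Mouse 5 did not lie with the Pparg+/- LysCre mice for every probe. For mCG56186.2 it was at 5050.2 and 4375 (vehicle and RSG), inside the Pparg+/- LysCre ranges, where the other Pparg fl/- LysCre mice had at most 2799.5 and 1837. For mCG13858.1 with RSG it was at 2598, between the Pparg+/- LysCre mice (1454 or less) and the other Pparg fl/- LysCre mice (3911 or more). For mCG146175 it had the highest signals of all mice, 1698 with vehicle and 1407 with RSG. No probe named for Pparg was found, so the genotype label of mouse 5 could not be checked.

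mCG134291.1 differed least among the 10 probes. It was at 1557 to 3008 with vehicle and 1695 to 2635 with RSG in Pparg+/- LysCre macrophages, and at 2061 to 2638 and 1595 to 3240.4 in Pparg fl/- LysCre macrophages. Its 5 log2 differences ran from -0.28 to 0.19, and each 95% interval included 0, that for RSG in Pparg+/- LysCre cells running from -0.78 to 0.22. mCG19202.1 was also not called in any of the 5 comparisons with all mice. Its groups overlapped for genotype with vehicle, at 1569 to 2216 against 1327 to 1944, and with RSG, at 1908 to 3296 against 1135 to 2514.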

How the data were processed

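The study deposited 1 table per array from Applied Biosystems chemiluminescence arrays, with a background-corrected signal, its standard deviation, the S/N, an assay-normalized signal and flags per probe; software and build are not given in the sources used here. The S/N is a score as deposited, and at 1 or less the listed signal is the standard deviation (99.9% of such values). A table of ratios over all arrays was deposited as well (column medians 0.951 to 1.06, lowest value 0.01), read here as each signal over a number per array and the probe's median; which statistic gave that number is unknown. It served as an alternative. The number of arrays and mice limits the precision.

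Signals were taken to log2 and quantile normalized over 32 arrays. Group means were fitted on the 16 macrophage arrays with limma 3.58.1 (R 4.3.3), over 16620 probes detected (S/N of at least 3) on at least 3 of 4 arrays of a group, with Benjamini-Hochberg adjustment over all of them. The fit was tested on simulated data. Control spots were left out. The comparisons are those named in the report, all two-sided, and the alternatives are in the closing section. Groups and mouse numbers come from the labels, which give the same number to arrays of the same mouse. Deviations from group means correlated at a median of 0.298 (0.00953 to 0.623) between arrays of a mouse and -0.146 between mice. The members and lists were chosen with earlier results of these data known, and as the probes number 10 all are named. Symbols were sought in RefSeq (GRCm38.p6). Tables used Python 3.11.15, pandas 2.3.3 and scipy 1.17.1.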

Additional observations from a re-analysis of the deposited data

Results flagged for a closer look

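In 3 of the 40 sets of 4 mice (10 probes in 4 macrophage groups), 1 mouse lay farther from the others than Dixon's 95% critical value allows, and chance gives about 1 in 20. AK041313.1 in vehicle-treated Pparg fl/- LysCre macrophages was at 2867 in mouse 5 and at 1470.5 to 1487 in the others (gap over range 0.983). In RSG-treated Pparg+/- LysCre macrophages, mouse 4 was at 2635 for mCG134291.1, against 1695 to 1793 in the others (0.872). Mouse 4 was also at 4565 for mCG56186.2 in that group, against 3841 to 3916 (0.887). No probe of the 10 had all mice of one genotype moving up and all of the other moving down with RSG.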

How the results depend on the processing

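The 10 probes number 4 at an S/N of 2 (2 of them shared), 22 at an S/N of 5 (3 shared), 34 when 15 of 16 macrophage arrays and at most 1 iDC array suffice (all 10 shared), and 10 to 16 without each replicate (all 10 shared). Counts over all probes tested are in brackets below. Probes called for RSG in Pparg+/- LysCre macrophages numbered 3 (199 of all 16620). They numbered 2 with the assay-normalized signal (119), only the arrays compared (314), all 32 arrays (229), the scan day as a block (240) or the adjusted t-test (199). With no detection filter 1 was called (65 of all 33012 probes), and by the methods' t-test unadjusted 6 (861 of all 16620). Of the probes chosen at an S/N of 2 or 5, 0 were called, and without each replicate 1 to 4. The median log2 difference of -0.62 for this comparison was -0.25 for the probes chosen at an S/N of 5 (18 of 22 below 0) and -0.26 by 15 of 16 arrays (26 of 34). That of -0.35 in Pparg fl/- LysCre macrophages was -0.12 and -0.21 by these rules. For RSG in Pparg fl/- LysCre macrophages the count was 0 in each setting. For genotype with vehicle it was 0 (26), against 1 among probes detected on all 16 macrophage arrays (444 of 10822). It was 1 with the mouse as a replicate block (341), 4 by the unadjusted t-test (1528) and 0 with all 32 arrays (817). Of the 22 chosen at an S/N of 5 it was 1, and without each replicate 0 to 5. For genotype with RSG it was 5 (1550). The count rose to 6 among probes detected on all 16 macrophage arrays (1388 of 10822) and by the unadjusted t-test (2209). It fell to 3 with median scaling (1185), the authors' ratios (1189), the assay-normalized signal (1497), a 2-fold threshold (759) or all 32 arrays (1971). With no detection filter 2 were called (647 of all 33012 probes). Fitting only the arrays compared (690) or blocking on scan day (1057) also gave 2. The adjusted t-test called 1 (187). Of probes chosen at an S/N of 2 it was 1 of 4, and at an S/N of 5 it was 6 of 22. Among those chosen by 15 of 16 arrays it was 10 of 34. Leaving out each replicate gave 2 to 9 (504 to 3385). For the difference in RSG effect it was 0 (1), against 1 with the replicate block (23), 2 by the unadjusted t-test (519), and 0 to 1 without each replicate. The genotype median with vehicle, -0.21, was -1.19 for the probes chosen at an S/N of 2, -0.36 by 15 of 16 arrays, -0.32 without replicate 2 and -0.14 without replicate 5. That with RSG, -0.18, was -1.08 and -0.49 by these rules, -0.27 at an S/N of 5, -0.07 with median scaling or the authors' ratios, -0.04 without replicate 4 and -0.09 without replicate 8. Of 1190 values of single probes under the alternatives, none was called in the opposite direction, 64 of those called lost the call and 27 of those not called gained it. mCG13858.1 was called in all 24 alternatives, for RSG in Pparg+/- LysCre macrophages (adjusted p 9.1e-06 to 0.0114) and for genotype with RSG (1.24e-06 to 0.0418). With the mouse as a block no other call changed than those named in the report. The causes were not tested.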
